A study of Mus musculus with 12 samples.

Results

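The 34 genes described here encode transcription factors of hindbrain and spinal interneurons, the local neurons that relay and shape sensory and motor signals. They comprise factors that divide the embryonic neural tube into progenitor domains, factors of inhibitory and of excitatory neuron classes, and factors of commissural and other neurons. A gene was taken where a probe set carried its symbol and no other, and each gene was read from its probe set with the highest mean over all 12 samples. Such a probe set existed for 32 of the 34 genes, of 18193 genes with one on the array; Pax2 and Bhlhe22 had none and have no value here. Of the 32, 23 were bright enough for the main test of 12600 genes. Dbx1, Dbx2, Nkx6-2, Ptf1a, Lmx1a, Tlx1, Phox2a, Evx1 and Evx2 had a mean under the filter, set at the 40th percentile over the probe sets, and are called dim; they were tested in a fit with no such filter. Nkx6-1 passed only through its signals on postnatal day 0, as its group means on postnatal day 5 lay below that level.

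The study profiled total RNA of mouse central nervous system with Affymetrix arrays, which read each transcript through a set of short probes. The groups were NR3B knockout and wild-type mice at postnatal day 5 (P5) and the same genotypes on postnatal day 0 (P0), with 3 samples in each of the 4 groups. NR3B is a subunit of NMDA-type glutamate receptors and is made from the gene Grin3b; no strain, sex or knockout allele is given in the sources used here. One label field gives brain, hindbrain and spinal cord as the tissue and another only brain, and the share of each region in a sample is not given. Samples are numbered within a group but not said to be separate animals. The p-values therefore reflect only how much these samples varied, which may partly be technical, and 3 arrays a group limit the precision.

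These factors are homeodomain, paired-box, GATA, POU, basic helix-loop-helix and PR-domain proteins that bind DNA and set which genes a neuron expresses. In the embryo, opposing signals from the roof plate and the floor plate place them in bands along the dorsal to ventral axis, each band producing its own neuron classes, and many stay on in the neurons after birth. Several also act outside these neurons: Lhx1 and Lhx5 in Purkinje cells, En2 in the cerebellum and midbrain, Ptf1a in progenitors of cerebellar inhibitory neurons, and Pou4f1 and Prrxl1 in sensory ganglia.

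Markers of hindbrain or spinal cord and of cerebellum were bright on the mean over all 12 samples, to which the filter was applied. All 10 measured Hox genes of the hindbrain and cervical cord passed the filter, as did 12 of 13 Hox genes of the trunk cord and 9 of 10 cerebellar markers, while 7 of 11 forebrain markers were dim. The Grin3b probe set gave 48.5, 39.7 and 45.4 in P5 knockout samples, against 273, 168 and 155 in P5 wild-type samples. It gave 31.4, 38.8 and 96.9 in P0 knockout samples, against 353, 198 and 304 in P0 wild-type samples, so no knockout sample reached a wild-type one of its age. The spread within a group, as the median SD over genes on the log2 scale, was 0.133 in P5 knockout and 0.119 in P5 wild type, against 0.210 in P0 knockout and 0.269 in P0 wild type. P0 wild-type replicates 1 and 2 stood apart in an earlier analysis of these data, and results that rest on them are also given without them. Array weights, which score how closely a sample follows its group, were 0.360, 0.189 and 2.44 for P0 wild-type replicates 1, 2 and 3. They were 0.375, 1.14 and 0.731 for P0 knockout replicates 1, 2 and 3, and between 1.28 and 2.03 for the P5 samples. The 18S control signal was 5939 in P0 wild-type replicate 1 and between 41473 and 90375 in the other samples.

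Between P0 and P5 the changes among these genes were mostly losses, in both genotypes. Pax8, Gbx1, Lbx1, Lmx1b, Prrxl1, Pou4f1 and Gbx2 fell in knockout and in wild type, and Pax3, En2 and Prdm8 rose in both; dim Ptf1a rose in both. All differences below are P5 minus P0 on the log2(signal + 16) scale after quantile normalization, with the standard error, and p-values were adjusted over all genes of a fit; the added 16 understates changes of low signals. Of the 23 genes in the main test, 3 rose and 7 fell in knockout mice (median difference -0.41, against -0.03 over all genes), where 10.5% of all genes changed (5.5% rose and 4.95% fell). In wild-type mice 3 rose and 9 fell (median -0.28, against 0.03), where 19.3% of all genes changed (10.8% rose and 8.52% fell). The 9 include Nkx6-1, which entered the main test only through its P0 signals. With all 32 genes in the fit without a filter, 4 rose and 7 fell in each genotype, or 34.4%, against 6.24% of all genes in knockout (3.49% rose and 2.75% fell) and 11.4% in wild type (6.55% rose and 4.89% fell). Where the text calls the ages of a gene separate, 33.3% of all tested genes were so in knockout and 35.3% in wild type, on the normalized scale. The knockout and wild-type comparisons use separate samples but 1 common estimate of the spread. In bulk tissue, fewer cells of a type and less RNA per cell cannot be told apart.

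**Figure D1:**
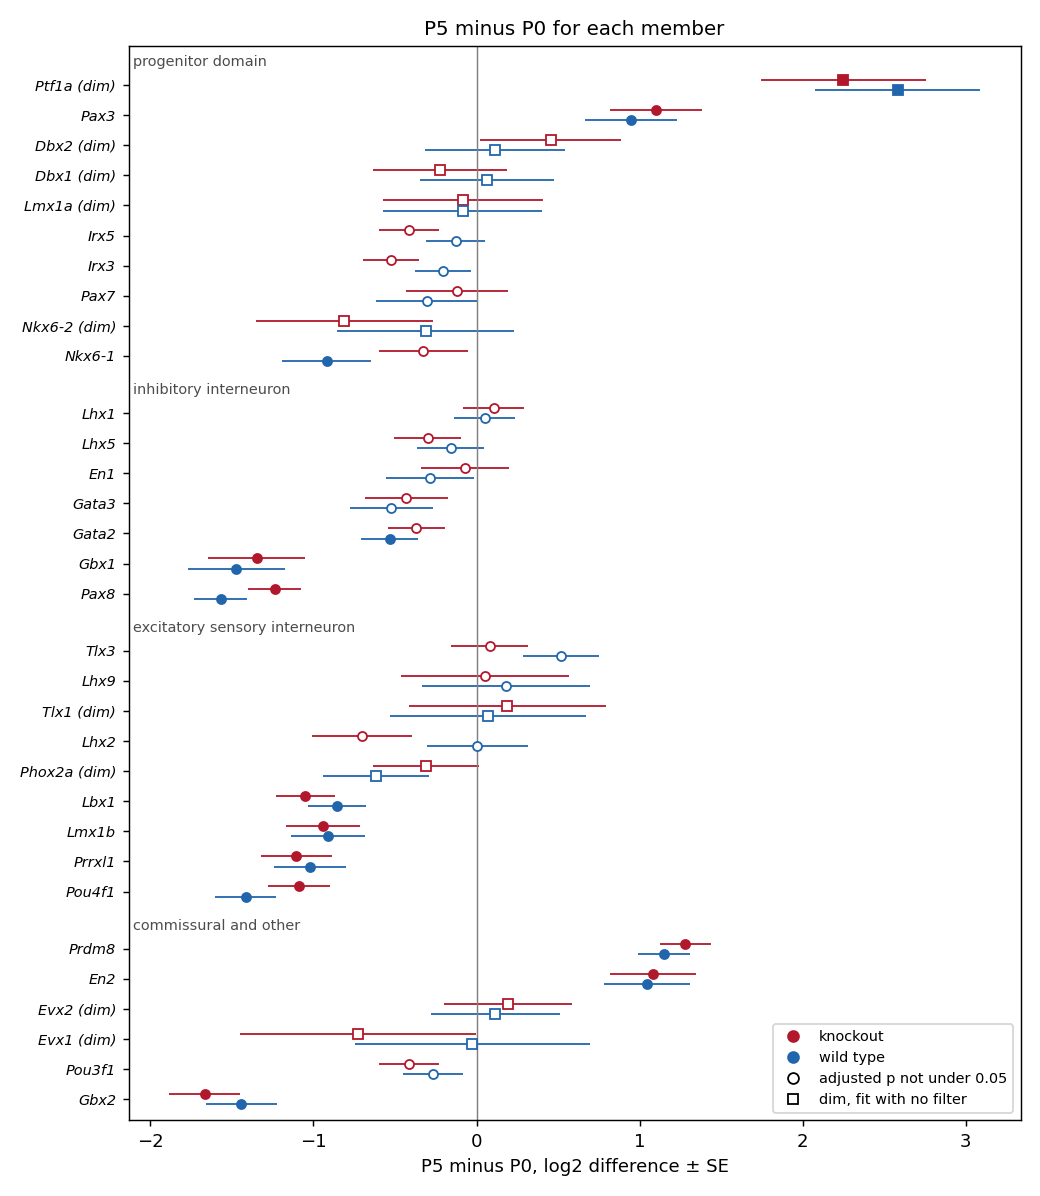
P5 minus P0 for each of the 32 measured genes, as the log2 difference with its standard error, in knockout (red, upper) and wild type (blue, lower), grouped by role. Filled symbols passed an adjusted p of 0.05 and squares are dim genes from the fit without a filter. The fallen genes are factors of the inhibitory and excitatory sensory groups, Gbx2 and, in wild type, Nkx6-1, which entered the main test only through its P0 signals. Ptf1a, Pax3, Prdm8 and En2 lie to the right.

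The inhibitory neuron factors held the gene with the smallest p in wild type. Of 7 measured, 2 fell in knockout (Pax8 and Gbx1) and 3 in wild type (Pax8, Gbx1 and Gata2), and none rose. Over all genes 4.95% fell in knockout and 8.52% in wild type. Pax8, a paired-box factor of inhibitory spinal interneurons that acts alongside Pax2, had signals of 663, 623 and 743 in P5 knockout samples, against 1831, 1358 and 1572 in P0 knockout samples. Wild-type samples gave 599, 604 and 558 at P5, against 1726, 1847 and 1736 at P0. Every P5 sample lay below every P0 sample in both genotypes, by a wide gap. The difference was -1.24 ± 0.16 in knockout (adjusted p = 0.000337, 2.36-fold lower) and -1.57 ± 0.16 in wild type (adjusted p = 4.17e-05, 2.97-fold lower). The 250 bases before the Pax8 start, at chr2:24475600-24475849 on the minus strand of GRCm38.p6 (RefSeq), are shown because this gene changed with the smallest p in wild type; they hold 6 CpG pairs, against a median of 18.5 over the 30 windows of 26 matched genes.
Pax8: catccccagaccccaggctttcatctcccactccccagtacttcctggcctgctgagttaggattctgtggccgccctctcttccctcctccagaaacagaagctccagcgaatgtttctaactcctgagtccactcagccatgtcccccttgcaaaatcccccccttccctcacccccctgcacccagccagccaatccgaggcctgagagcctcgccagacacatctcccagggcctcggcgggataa

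Gbx1, a homeodomain factor of inhibitory neurons of the dorsal horn, had signals of 581, 353 and 556 in P5 knockout samples, against 1186, 1018 and 1591 in P0 knockout samples. Its wild-type signals were 632, 505 and 278 at P5, against 1541, 1187 and 1120.3 at P0. The 2 ages did not overlap in either genotype, and P5 wild-type replicate 3 was the lowest of all samples. Gbx1 fell by 2.55-fold in knockout (difference -1.35 ± 0.30, adjusted p = 0.0112) and by 2.78-fold in wild type (difference -1.47 ± 0.30, adjusted p = 0.00491). The knockout call was lost without P5 knockout replicate 2 (adjusted p = 0.0592), and the wild-type call without P0 wild-type replicates 1 and 2 together (adjusted p = 0.0555).

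Gata2, which with Gata3 marks the V2b inhibitory class of the ventral cord, had signals of 1459.5, 1454 and 1536 in P5 knockout samples, against 2064, 1672 and 1910.4 in P0 knockout samples. The wild-type values were 1144, 1557 and 1145 at P5, against 1569, 2099 and 1866 at P0. In both genotypes the deposited signals of the ages were separate by a small margin. The fall in wild type was -0.53 ± 0.17 (adjusted p = 0.0477), and the difference in knockout was -0.37 ± 0.17 (adjusted p = 0.204). The test of the difference between genotypes gave an adjusted p of 0.852, so the call in wild type alone does not separate them. The wild-type call was lost without any 1 of P5 knockout replicates 1, 2 and 3, P5 wild-type replicates 1 and 3, P0 knockout replicates 2 and 3, and P0 wild-type replicates 2 and 3 (adjusted p up to 0.157). It was also lost without P0 wild-type replicates 1 and 2 together, with only the groups compared in the fit, under median centring, without a filter, with the filter at the 20th percentile and with the mean of all probe sets (adjusted p up to 0.114).

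The other inhibitory factors passed no test. Gata3 had differences of -0.43 ± 0.26 in knockout and -0.52 ± 0.26 in wild type, in the direction of Gata2. Lhx5, a LIM-homeodomain factor of dorsal inhibitory neurons and of Purkinje cells, had -0.30 ± 0.21 in knockout and -0.16 ± 0.21 in wild type. En1, the factor of the V1 inhibitory class, had -0.07 ± 0.27 in knockout and -0.28 ± 0.27 in wild type. Lhx1, a LIM-homeodomain factor that works with Lhx5 in dorsal cord and Purkinje cells, had signals of 4788, 3728 and 4634 in P5 knockout samples, against 4195, 3140.5 and 4919.6 in P0 knockout samples. In wild type Lhx1 gave 3600.3, 4186 and 3995 at P5, against 4048, 4434 and 3049 at P0. The ages overlapped fully, and the 95% interval of the difference ran from -0.30 to 0.51 in knockout and -0.35 to 0.45 in wild type.

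The group called excitatory sensory here is loose, since Lbx1 and Phox2a are not confined to excitatory sensory neurons. Of its 7 genes in the main test, 4 fell in each genotype and none rose. Over all genes 4.95% fell in knockout and 8.52% in wild type. The 4 are Lbx1, Lmx1b, Prrxl1 and Pou4f1, which were 1.92- to 2.15-fold lower at P5 in knockout and 1.81- to 2.67-fold lower in wild type. Pou4f1, the POU-homeodomain factor also called Brn3a, of sensory ganglia and of dorsal excitatory neurons, had signals of 2388, 1308 and 1424 in P5 knockout samples, against 3452, 3174 and 3904 in P0 knockout samples. Wild-type signals were 1522, 1830.0 and 1544 at P5, against 4735, 3876 and 4453 at P0. All P5 values lay below all P0 values, with P5 knockout replicate 1 the highest at that age. The difference was -1.09 ± 0.19 in knockout (adjusted p = 0.00257) and -1.42 ± 0.19 in wild type (adjusted p = 0.000324), while a second probe set gave -0.65 ± 0.19 in knockout, which did not pass over all probe sets (adjusted p = 0.0879), and -1.17 ± 0.19 in wild type (adjusted p = 0.00288).

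Lbx1, the homeodomain factor of the late-born dorsal neurons that build the dorsal horn, had signals of 1467, 1641 and 1395 in P5 knockout samples, against 3166, 2476 and 3642 in P0 knockout samples. In wild-type samples it read 1535, 1478 and 1525 at P5, against 3235, 2934 and 2141 at P0. The P5 samples of both genotypes sat close together below every P0 sample, the lowest of which was P0 wild-type replicate 3. Lbx1 differed by -1.05 ± 0.18 in knockout (adjusted p = 0.00239) and by -0.85 ± 0.18 in wild type (adjusted p = 0.00609). Without P0 wild-type replicates 1 and 2 together, the wild-type difference was -0.48 (adjusted p = 0.129). A second Lbx1 probe set passed in neither genotype (-0.79 ± 0.24, adjusted p = 0.0943, in knockout and -0.56 ± 0.24, adjusted p = 0.185, in wild type, adjusted over all probe sets).

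Prrxl1, a paired-like factor of dorsal horn neurons and of the sensory neurons that reach them, had signals of 1507, 1165 and 1086 in P5 knockout samples, against 2848, 1887 and 3426 in P0 knockout samples. The wild-type values were 1261, 1215 and 1009 at P5, against 2396, 2747 and 1977 at P0. Every P5 value was below every P0 value, while P0 knockout replicates spanned the widest range. The differences were -1.11 ± 0.22 in knockout (adjusted p = 0.00604) and -1.02 ± 0.22 in wild type (adjusted p = 0.00659), with the wild-type call lost without P0 wild-type replicates 1 and 2 together (adjusted p = 0.0898).

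Lmx1b, a LIM-homeodomain factor that dorsal horn excitatory neurons and serotonin neurons need, had signals of 789, 528 and 786 in P5 knockout samples, against 1092, 1287 and 1644 in P0 knockout samples. Wild-type samples gave 795, 729 and 782 at P5, against 1602, 1549 and 1212 at P0. The ages were separate in both genotypes. The fall was -0.94 ± 0.22 in knockout (adjusted p = 0.0168) and -0.91 ± 0.22 in wild type (adjusted p = 0.0142). The knockout call was lost without P5 knockout replicate 2 or P0 knockout replicate 3 (adjusted p up to 0.0850), and the wild-type call without P5 wild-type replicate 2, P0 wild-type replicate 1, or P0 wild-type replicates 1 and 2 together (adjusted p up to 0.170).

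Of the remaining factors of this group, Tlx3, which with Lmx1b and Prrxl1 directs the excitatory fate in the dorsal horn, passed in neither genotype. Its signals were 755, 903 and 1244 in P5 knockout samples, against 989.6, 1096 and 599.6 in P0 knockout samples. Its wild-type signals were 1037, 993 and 1195 at P5, against 844, 758 and 627 at P0. The ages overlapped in knockout and were separate, with P5 higher, in wild type (0.08 ± 0.23, adjusted p = 0.877, in knockout and 0.52 ± 0.23, adjusted p = 0.127, in wild type). The dim genes Tlx1, a relative of Tlx3, and Phox2a, a factor of noradrenergic and cranial motor neurons, had differences of 0.19 ± 0.60 and -0.31 ± 0.32 in knockout. They had 0.07 ± 0.60 and -0.62 ± 0.32 in wild type, again without passing.

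Lhx2 and Lhx9, LIM-homeodomain factors of dorsal commissural neurons that are also expressed in forebrain and midbrain, were set apart by the spread at P0. Lhx9 had signals of 3335, 3428 and 3320.3 in P5 knockout samples, against 3920.3, 4174 and 1889 in P0 knockout samples. Wild-type signals were 3029, 3829 and 3615 at P5, against 1805, 1539.8 and 10112 at P0. P0 wild-type replicate 3 was thus the highest of all 12 samples while replicates 1 and 2 were the lowest, and the ages overlapped. The 95% interval of the age difference was -1.05 to 1.16 in knockout and -0.93 to 1.28 in wild type. The same sample was highest in the 3 other Lhx9 probe sets, with 3191, 1901 and 3877. Lhx2 gave 1139, 952 and 884 in P5 knockout samples, against 1343, 2041 and 1434 in P0 knockout samples. In wild type Lhx2 gave 1053, 1145 and 1081 at P5, against 728, 836 and 2065 at P0, again with replicate 3 highest. Lhx2 did not pass in knockout (-0.70 ± 0.31, adjusted p = 0.171), where all P5 samples were lower, or in wild type (0.01 ± 0.31, adjusted p = 0.993).

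**Figure D2:**
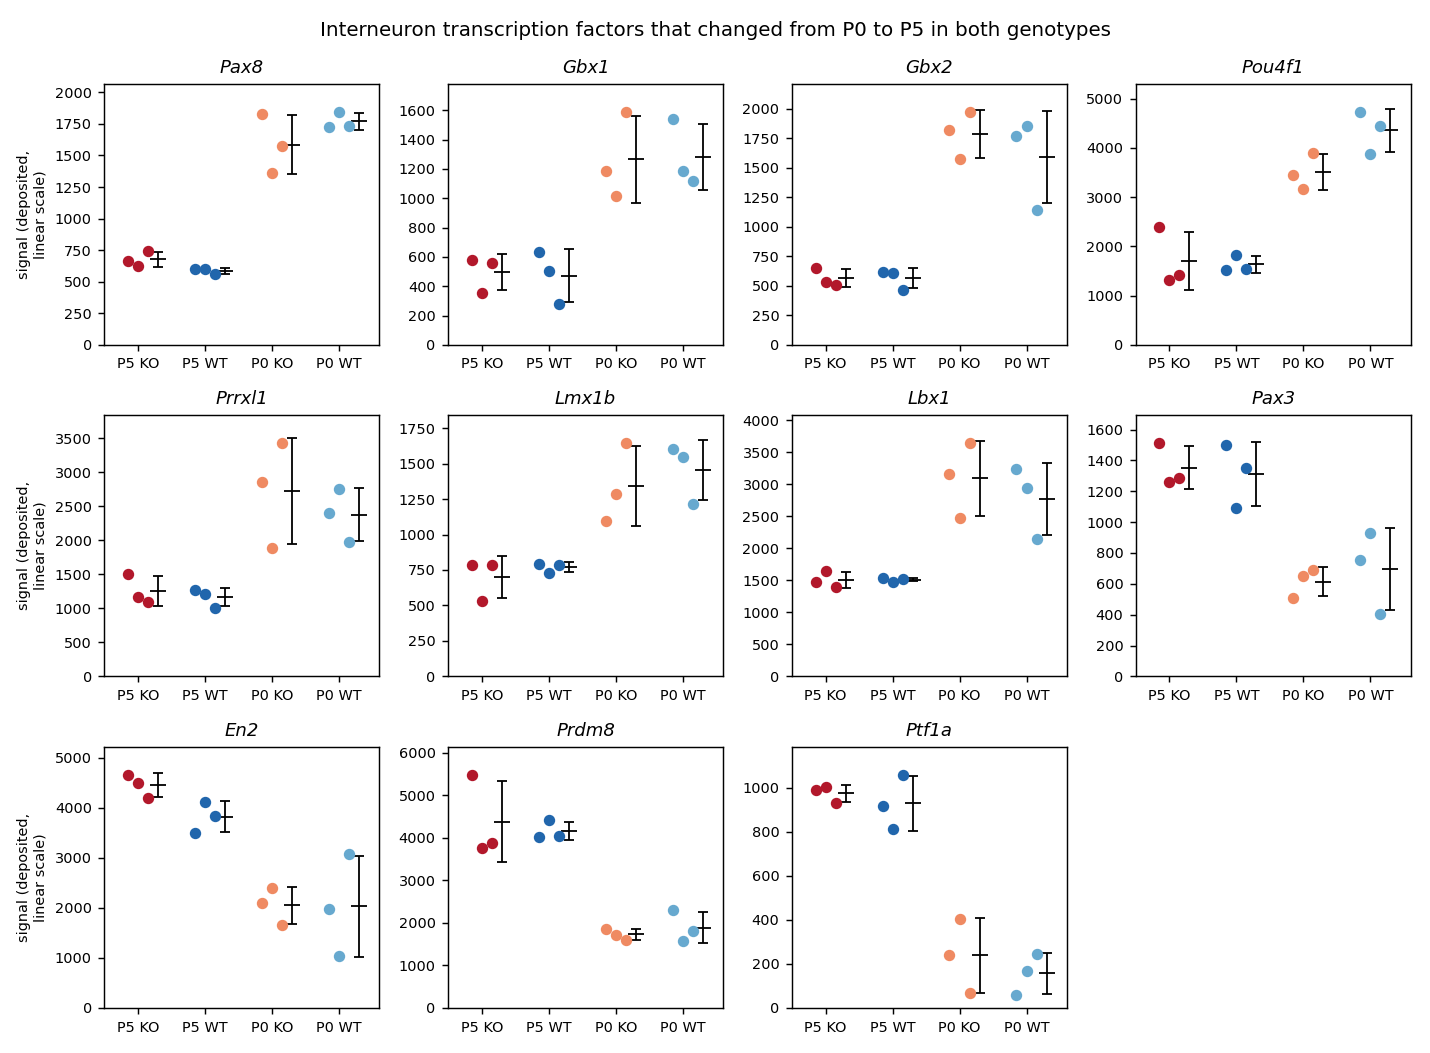
Deposited signal (linear scale from 0) of the 11 genes that changed with age in both genotypes, 1 panel a gene, for P5 knockout, P5 wild type, P0 knockout and P0 wild type from left to right. Points are samples, and the bar beside them is the mean with its SD (n = 3). In each panel the 6 P5 samples lie all below or all above the 6 P0 samples.

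Of the commissural and other factors, Gbx2 fell and En2 and Prdm8 rose in both genotypes. Gbx2, which with Otx2 positions the boundary of midbrain and hindbrain and later marks thalamic neurons, had signals of 651, 535 and 507 in P5 knockout samples, against 1821, 1571 and 1975 in P0 knockout samples. In wild-type samples it read 618, 612 and 466 at P5, against 1771, 1849.8 and 1139.9 at P0. Every P5 value was below every P0 value. The difference of -1.67 ± 0.22 in knockout (adjusted p = 0.000316, 3.18-fold lower) and -1.44 ± 0.22 in wild type (adjusted p = 0.000804, 2.72-fold lower) passed in all 24 alternatives that tested Gbx2. Over these the wild-type difference ran from -1.67 to -0.98, and from -1.67 to -1.28 when 1 sample was left out. The knockout difference ran from -1.76 to -1.55.

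Prdm8, a PR-domain repressor that acts with Bhlhe22 in developing neurons, had signals of 5482, 3762 and 3885 in P5 knockout samples, against 1862, 1716 and 1595 in P0 knockout samples. The wild-type values were 4026, 4408 and 4029 at P5, against 2292, 1575 and 1796 at P0. Prdm8 was higher at P5 in every sample of both genotypes. The rise was 1.28 ± 0.16 in knockout (adjusted p = 0.000212, 2.43-fold) and 1.15 ± 0.16 in wild type (adjusted p = 0.000415, 2.22-fold), and it passed in all 25 alternatives.

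En2, an engrailed factor of the midbrain and cerebellum, had signals of 4659.8, 4493 and 4186 in P5 knockout samples, against 2099, 2392 and 1661 in P0 knockout samples. Wild-type samples gave 3502, 4118 and 3836 at P5, against 1974, 1044 and 3069.7 at P0. The ages were separate in both genotypes, with P0 wild-type replicate 3 the highest P0 sample. En2 rose by 1.08 ± 0.26 in knockout (adjusted p = 0.0194) and by 1.04 ± 0.26 in wild type (adjusted p = 0.0161). The knockout call was lost without any 1 of P5 knockout replicates 1, 2 and 3 and P0 knockout replicate 3 (adjusted p up to 0.0690). The wild-type call was lost without P5 wild-type replicate 2 or 3 (adjusted p up to 0.0610), and with only the groups compared in the fit. The wild-type difference was 0.67 without P0 wild-type replicate 2 (adjusted p = 0.0119), 0.34 without P0 wild-type replicates 1 and 2 together (adjusted p = 0.199) and 0.50 with array weights (adjusted p = 0.0246). Pou3f1, a POU factor of Schwann cells and of subsets of neurons, did not pass (-0.42 ± 0.18, adjusted p = 0.178, in knockout and -0.27 ± 0.18, adjusted p = 0.316, in wild type). The dim V0 commissural factors Evx1 and Evx2 differed by -0.73 ± 0.72 and 0.19 ± 0.39 in knockout, and by -0.03 ± 0.72 and 0.11 ± 0.39 in wild type, also without passing.

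The sequence before the start of these genes was searched for 4 short motifs. Windows of 250 bases were read from RefSeq (GRCm38.p6) for 26 of the 34 genes, 30 windows in all; Pax3, Irx5, Lhx5, Gbx1, Lbx1, En2, Pou3f1 and Bhlhe22 were not matched. On either strand, the E-box CAGCTG, a core bound by basic helix-loop-helix proteins, was in 4 of the 30 windows (Gbx2, Pou4f1, Prdm8 and 1 of Pax2), a share close to the 13.0% of 32851 windows of all genes, and not in that of Pax8. The homeodomain core TAATTA was in 0 of the 30, against 4.84%, the octamer ATGCAAAT in 1 (Evx1), against 1.60%, and the GATA motif AGATAA in 1 (Nkx6-2), against 9.99%. The 4 motifs do not overlap in the windows shown, and a match describes letters only. The median GC content was 63.4% in the 30 windows, against 52.4% in all. The windows of Gbx2, Pou4f1 and Prdm8 lie at chr1:89931177-89931426 (minus strand), chr14:104468000-104468249 (minus strand) and chr5:98180619-98180868 (plus strand). They are given with the E-box in capitals, which begins at -51, -118 and -217 relative to the start in that order, and are shown because these genes, like Pax8, passed in both genotypes in every alternative that tested them.
Gbx2: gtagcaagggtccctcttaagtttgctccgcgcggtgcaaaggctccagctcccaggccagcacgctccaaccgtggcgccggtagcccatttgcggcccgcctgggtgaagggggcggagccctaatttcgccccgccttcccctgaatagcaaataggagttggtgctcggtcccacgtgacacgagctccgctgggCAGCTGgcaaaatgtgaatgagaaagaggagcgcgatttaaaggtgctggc
Pou4f1: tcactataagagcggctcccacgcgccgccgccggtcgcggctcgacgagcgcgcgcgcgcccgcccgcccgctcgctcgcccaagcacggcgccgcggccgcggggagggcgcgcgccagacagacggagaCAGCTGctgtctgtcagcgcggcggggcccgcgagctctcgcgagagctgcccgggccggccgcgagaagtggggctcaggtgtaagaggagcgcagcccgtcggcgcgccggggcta
Prdm8: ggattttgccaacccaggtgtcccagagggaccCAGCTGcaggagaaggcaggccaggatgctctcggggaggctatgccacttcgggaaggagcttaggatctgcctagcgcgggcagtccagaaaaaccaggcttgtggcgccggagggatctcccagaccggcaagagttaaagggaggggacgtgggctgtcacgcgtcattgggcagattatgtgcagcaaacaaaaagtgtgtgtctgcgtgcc

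Of the 10 progenitor domain factors, Pax3 and dim Ptf1a rose in both genotypes. Nkx6-1 was called lower in wild type, in a test that it entered only through its P0 signals. The other 7 passed no test. Pax3, the paired-box factor of the dorsal neural tube and neural crest, had signals of 1512, 1259 and 1288 in P5 knockout samples, against 506, 649 and 689 in P0 knockout samples. Its wild-type signals were 1501, 1089.9 and 1349 at P5, against 754, 932 and 407 at P0. The ages were separate in both genotypes. Pax3 rose by 1.10 ± 0.28 in knockout (adjusted p = 0.0238) and by 0.95 ± 0.28 in wild type (adjusted p = 0.0321), and its other 2 probe sets differed by 0.55 and 0.91 in knockout, without passing (adjusted p = 0.204 and 0.0742 over all probe sets), and rose by 0.84 and 0.94 in wild type (adjusted p = 0.0307 and 0.0468). The knockout call was lost without any 1 of P5 knockout replicates 1, 2 and 3 and P0 knockout replicates 1 and 2 (adjusted p up to 0.0847). The wild-type call was lost without any 1 of P5 wild-type replicates 1, 2 and 3 and P0 wild-type replicates 1 and 3 (adjusted p up to 0.118), and with only the groups compared in the fit. The wild-type difference was 0.61 without P0 wild-type replicate 3, 1.63 without P0 wild-type replicates 1 and 2 together (adjusted p = 0.0037) and 1.46 with array weights (adjusted p = 6.49e-05).

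Ptf1a, a basic helix-loop-helix factor that directs the inhibitory fate in the dorsal horn and in the cerebellum, had signals of 992, 1004 and 931 in P5 knockout samples, against 239.8, 406 and 68.8 in P0 knockout samples. Wild-type signals were 917, 814 and 1060.5 at P5, against 60.3, 168 and 246 at P0. No P0 sample reached a P5 sample in either genotype. In the fit without a filter Ptf1a rose by 2.25 ± 0.50 in knockout (adjusted p = 0.0169, 4.75-fold) and by 2.58 ± 0.50 in wild type (adjusted p = 0.00531, 5.99-fold). A two-sided exact permutation test gave p = 0.1 in each genotype, the smallest that 3 against 3 samples allow. The knockout call was lost without any 1 of P5 knockout replicates 1, 2 and 3 and P0 knockout replicate 3 (adjusted p up to 0.0671).

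Nkx6-1, a homeodomain factor of the ventral neural tube, had signals of 309.6, 327 and 451 in P5 knockout samples, against 381, 523 and 465 in P0 knockout samples. In wild-type samples it read 319, 231 and 357 at P5, against 613, 547 and 577 at P0. The ages overlapped in knockout and were separate in wild type. The difference was -0.33 ± 0.27 in knockout (adjusted p = 0.511) and -0.92 ± 0.27 in wild type (adjusted p = 0.0323), and the test of the difference between genotypes gave an adjusted p of 0.742. The wild-type call was lost without any 1 of P5 wild-type replicates 1 and 2 and P0 wild-type replicates 1 and 3 (adjusted p up to 0.123), without P0 wild-type replicates 1 and 2 together (adjusted p = 0.131), with only the groups compared in the fit and in the fit without a filter (adjusted p = 0.0525).

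Among the other progenitor factors, Irx3 and Irx5, Iroquois factors of intermediate progenitors, differed by -0.53 ± 0.17 (adjusted p = 0.0679) and -0.41 ± 0.18 (adjusted p = 0.175) in knockout. In wild type they differed by -0.21 ± 0.17 (adjusted p = 0.407) and -0.13 ± 0.18 (adjusted p = 0.646). In knockout every P5 sample of both genes was below every P0 sample. Pax7, the dorsal partner of Pax3, gave 999, 554 and 462 in P5 knockout samples, against 531, 892 and 651 in P0 knockout samples. In wild type Pax7 gave 640.1, 744 and 470.0 at P5, against 649.7, 617 and 1067 at P0, so that the ages overlapped in both genotypes. Dim Dbx1 and Dbx2, factors of progenitors at the border of the dorsal and ventral neural tube, Nkx6-2, a relative of Nkx6-1, and Lmx1a, a roof plate and rhombic lip factor, had differences between -0.81 and 0.46 in knockout and between -0.31 and 0.11 in wild type, with adjusted p-values from 0.469 to 0.959.

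For 5 genes a further probe set pointed the other way in at least 1 genotype. The second Lmx1b probe set gave 538, 106 and 244 in P5 knockout samples, against 38.4, 307 and 371 in P0 knockout samples. The wild-type values were 211, 241 and 178 at P5, against 69.6, 21.2 and 101 at P0. Its mean lay below the filter level, and its differences, 0.43 ± 0.73 in knockout and 1.63 ± 0.73 in wild type, did not pass. The second Pax8 probe set gave 27.9, 56.0 and 125 in P5 knockout samples, against 269.8, 239 and 18.7 in P0 knockout samples. Wild-type samples gave 311, 323 and 134 at P5, against 180.2, 137 and 135 at P0. Its mean also lay below that level, and it passed in neither genotype (-0.78 ± 0.71 in knockout and 0.61 ± 0.71 in wild type). The second Pax7 probe set gave 299, 167 and 131 in P5 knockout samples, against 607, 409 and 248 in P0 knockout samples. Its wild-type signals were 346, 376 and 284 at P5, against 229.6, 253 and 399 at P0. Neither difference passed (-1.0 ± 0.39 in knockout and 0.21 ± 0.39 in wild type). The second Lhx1 probe set gave 936, 1238 and 733 in P5 knockout samples, against 1233, 982 and 795 in P0 knockout samples. Wild-type signals were 1138, 985 and 1051 at P5, against 1350.2, 779 and 757 at P0. Its ages overlapped, as on the chosen probe set (-0.09 ± 0.25 in knockout and 0.18 ± 0.25 in wild type). For Lhx9, 1 further probe set differed by -0.04 ± 0.59 in knockout, with signals of 1531, 1111 and 959 at P5, against 1208, 1853 and 712 at P0. Its wild-type signals of 1029, 1142 and 1254 at P5, against 549.9, 307 and 3191 at P0, again held both the lowest and the highest sample.

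Markers of tissue and of other cells moved between the ages as well, and their part in the changes above was not tested. Beside the marker counts here and in the next paragraph, 5.5% of all genes rose and 4.95% fell in knockout. In wild type 10.8% rose and 8.52% fell. All 10 Hox genes of the hindbrain and cervical cord fell in both genotypes, with a median difference of -1.18 in knockout and -1.04 in wild type. Their summed signal ran from 19133 to 22943 in P5 knockout, against 37817 to 48157 in P0 knockout. In wild type it ran from 23275 to 24204 at P5, against 35765 to 59539 at P0. Of 12 tested Hox genes of the trunk cord, 6 fell in knockout and 5 in wild type. Cerebellar markers rose, 7 of 9 in knockout and 8 of 9 in wild type, with a median difference of 1.09 in knockout and 1.38 in wild type. Their summed signal ran from 140359 to 158183 in P5 knockout, against 76280 to 81486 in P0 knockout. In wild type it ran from 143447 to 148053 at P5, against 82465 to 86596 at P0, so that hindbrain and cervical Hox signals were lower and cerebellar signals higher in every P5 sample. Of 3 tested midbrain markers, which bear on En2, Lhx2 and Lhx9, 0 passed in knockout and 2 rose in wild type, with a median difference of 0.65 in knockout and 1.11 in wild type. The summed midbrain signal of 6 markers, 3 of them dim, ran from 5397 to 5844 in P5 knockout, against 3747 to 4441 in P0 knockout. In wild type it ran from 5118 to 5729 at P5, against 2384, 2239 and 4209 in P0 replicates 1, 2 and 3. P0 wild-type replicates 1 and 2 were thus the lowest of all samples here too, as for Lhx9. Of 4 tested forebrain markers, 1 fell in each genotype.

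Among cell types, all 7 oligodendrocyte and all 6 dividing-cell markers rose in both genotypes. Of 7 astrocyte markers, 5 rose in knockout and 6 in wild type, and of 7 microglia markers, 2 and 4 in that order. Of 10 meningeal markers, 1 rose and 1 fell in knockout, and 6 rose in wild type. Of 3 tested red blood cell markers, 1 rose in knockout and 2 in wild type, and of 3 noradrenaline neuron markers 1 fell in each. Of 7 neuron markers, 1 fell in knockout and 3 in wild type. Of 4 tested sensory ganglion markers, Prph, an intermediate filament of peripheral neurons, fell by 1.41 in knockout and by 1.27 in wild type, and the others did not pass. The summed sensory ganglion signal, which bears on Pou4f1 and Prrxl1, ran from 3490 to 4700 in P5 knockout, against 6692 to 11926 in P0 knockout. In wild type it ran from 3523 to 4274 at P5, against 6219 to 15337 at P0. The top P0 values belonged to P0 wild-type replicate 3 and P0 knockout replicate 2, the samples in which Lhx9 was highest within their groups. Pou4f1 was not highest in these samples (4453 and 3174), and Prrxl1 was lowest within their groups (1977 and 1887). How the ganglion signal relates to these genes was not tested. Of 4 serotonin neuron markers, which bear on Lmx1b, 0 fell in knockout and 1 in wild type, and of 4 tested motor neuron markers 2 fell in each.

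**Figure D3:**
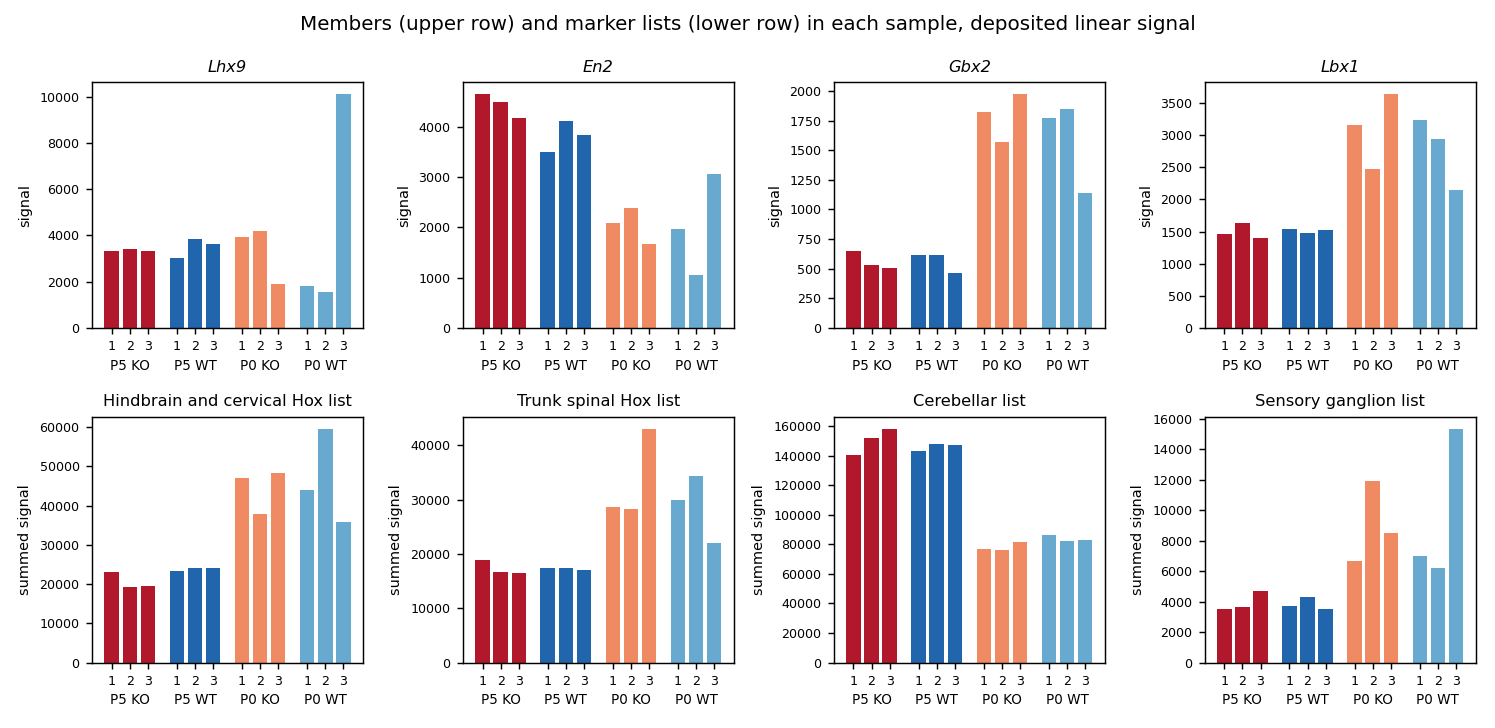
Deposited linear signal in each of the 12 samples, numbered by replicate, for 4 of the factors (upper row) and summed over the genes of 4 marker lists (lower row). From left to right stand P5 knockout, P5 wild type, P0 knockout and P0 wild type, and all axes start at 0. P0 wild-type replicate 3 has the highest Lhx9 and sensory ganglion signals and the lowest Gbx2, Lbx1 and Hox signals of the P0 samples.

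Other genes of the same neuron classes moved in both directions. Of 57 further transcription factors listed, 48 had a probe set and 32 were tested. In knockout 10 rose and 4 fell, against 5.5% and 4.95% of all genes, with a median difference of 0.14. In wild type 10 rose and 5 fell, against 10.8% and 8.52% of all genes, with a median difference of 0.06. Pax6, Atoh1, Nfib, Barhl1, Zic2 and Zic1, all expressed in the cerebellar granule cell lineage, had the smallest p in wild type. Pax6 rose by 2.02 ± 0.15 in knockout and 2.06 ± 0.15 in wild type, and Atoh1 by 1.92 ± 0.18 and 2.16 ± 0.18 in the same order. The rises of Nfib, Barhl1, Zic2 and Zic1 were between 0.82 and 1.10 in knockout and between 0.90 and 1.55 in wild type. Of 25 transmitter and peptide genes, 22 had a probe set and 19 were tested. In knockout 2 rose and 2 fell, where 10.5% of all genes changed, with a median difference of -0.25. In wild type 3 rose and 3 fell, where 19.3% of all genes changed, with a median difference of 0.10. Calb1, which encodes calbindin, rose by 1.72 ± 0.17 in knockout and 1.91 ± 0.17 in wild type, and Pvalb, which encodes parvalbumin, by 1.02 ± 0.30 and 1.51 ± 0.30 in that order. Calb2, for calretinin, rose in wild type (0.77 ± 0.18, adjusted p = 0.0111) and did not pass in knockout (0.39 ± 0.18, adjusted p = 0.199). Gad1, the GABA-synthesizing enzyme, and Slc17a6, the vesicular glutamate transporter of these regions, fell in wild type by 0.56 and 0.61 and did not pass in knockout (-0.25 and -0.24). Tac1, the substance P precursor, fell by 0.58 in knockout and by 0.56 in wild type.

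Knockout and wild-type mice were then compared at each age, which asks whether loss of NR3B goes with other levels of these factors. None of the 23 genes in the main test, and none of the 9 dim ones, passed at P0, at P5, averaged over the ages or in the test of whether the age change differed between genotypes. Few genes passed anywhere, 0.0238% of all genes at P0, 0.00794% at P5, 0.0238% averaged and 0% in the test of the difference. The fit without a filter called 0.022% of all genes at P0, 0.0055% at P5, 0.0165% averaged and 0% in that test. At an unadjusted p of 0.05 limma gave 1 of the 23 at P0 (Irx3), against 16.1% of all genes, and 0 at P5, against 1.84%; it gave 0 averaged, against 8.65%, and 0 in the test of the difference, against 4.98%. The median difference, knockout minus wild type, was 0.09 at P0 and 0.07 at P5, against 0.07 and 0.00 over all genes.

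**Figure D4:**
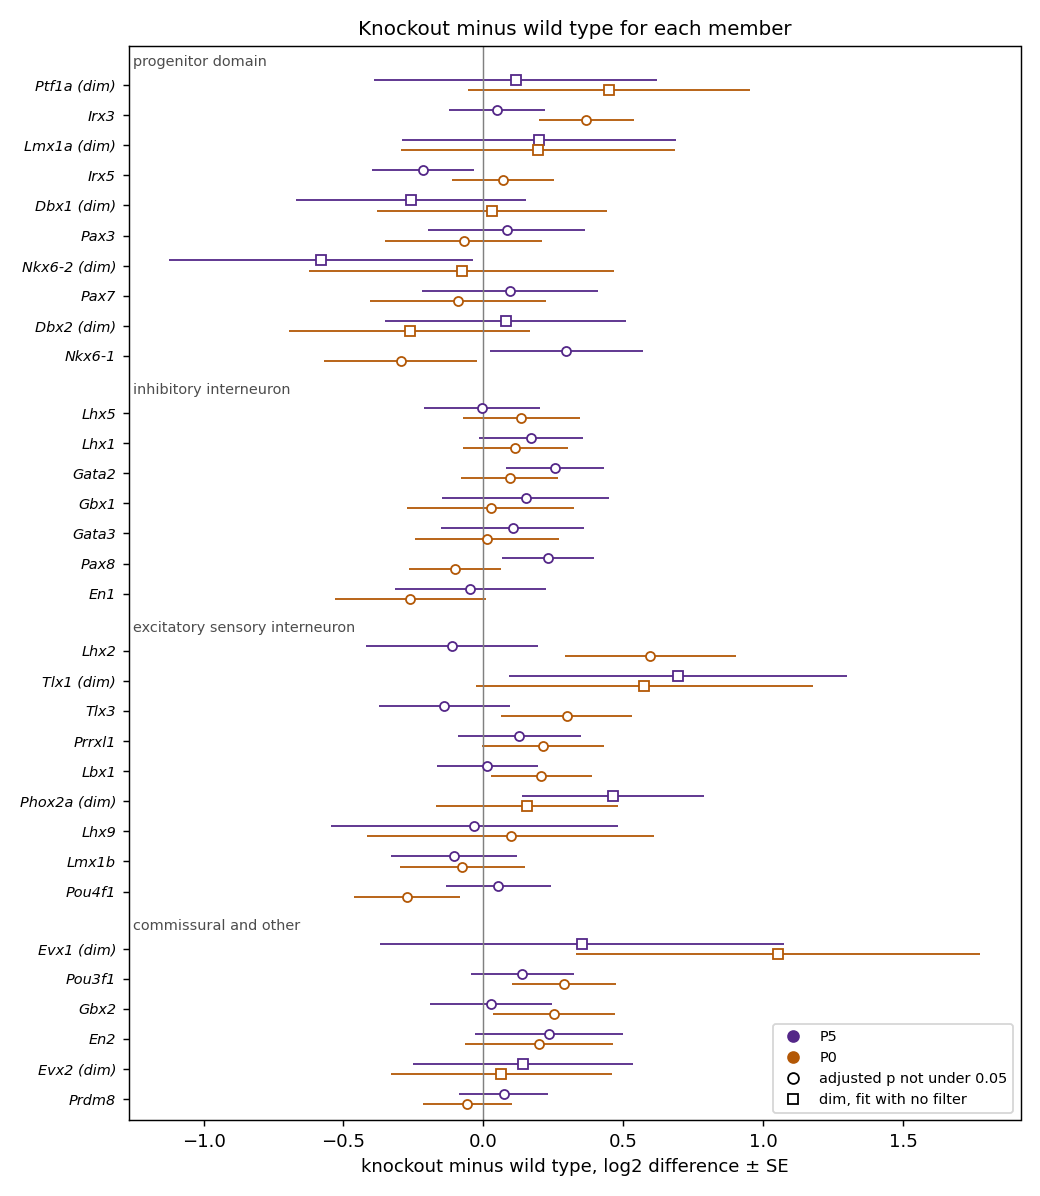
Knockout minus wild type for each of the 32 measured genes, as the log2 difference with its standard error, at P5 (purple, upper) and P0 (orange, lower), grouped by role. All symbols are open because none passed an adjusted p of 0.05, and squares are dim genes from the fit without a filter. Among bright genes the largest difference is that of Lhx2 at P0.

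At P0, Irx3 had the smallest p. Its signals were 2624, 2963 and 2907 in P0 knockout samples, against 1941, 2876 and 2069 in P0 wild-type samples, with wild-type replicate 2 inside the knockout range. The difference was 0.37 ± 0.17 (adjusted p = 0.308, 95% interval 0.00 to 0.74). Irx3 passed without P0 wild-type replicate 2 (0.57, adjusted p = 0.0151) and with array weights (0.54, adjusted p = 0.0183). At P5 Irx3 gave 2181, 1892 and 1921 in knockout and 2176, 1903 and 1837 in wild type, a difference of 0.05 ± 0.17. Lhx2 came next, with signals of 1343, 2041 and 1434 in P0 knockout and 728, 836 and 2065 in P0 wild type. Here the groups overlapped through wild-type replicate 3, and the difference of 0.60 ± 0.31 (adjusted p = 0.335) turned to -0.30 (adjusted p = 0.516) without P0 wild-type replicates 1 and 2 together. Without those samples Lhx9 passed as lower in knockout (-1.63, adjusted p = 0.0243), set against the 1 wild-type sample left, whose spread is taken to equal that of the other groups; with them it differed by 0.10 ± 0.51.

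Pou3f1 and Nkx6-1 were the genes whose P0 genotypes did not overlap. Pou3f1 gave 1769, 1737 and 1490.2 in P0 knockout samples, against 1388, 1463 and 1398 in P0 wild-type samples, all higher in knockout, with a difference of 0.29 ± 0.18 (adjusted p = 0.416). Nkx6-1, whose values are given above, was lower in every P0 knockout sample (-0.30 ± 0.27, adjusted p = 0.567) and had 0.30 ± 0.27 at P5. These are 2 of 23 genes, where 10.2% of all genes did not overlap. Pou4f1 differed by -0.27 ± 0.19 (adjusted p = 0.449) and Tlx3 by 0.30 ± 0.23 (adjusted p = 0.502) at P0, with overlapping groups. Some summed marker signals also separated the P0 genotypes, and their part in these values was not tested. The meningeal sum ran from 125894 to 162544 in P0 knockout, against 60363 to 94107 in P0 wild type. Red blood cell markers gave 2932 to 4503 in P0 knockout, against 1181 to 2090 in P0 wild type. The cerebellar sum was lower in P0 knockout, with 76280 to 81486, against 82465 to 86596 in P0 wild type. The mean log2 signal of the same list, after normalization, went the other way. It was 10.878 to 11.288 in P0 knockout, against 10.664 to 10.877 in P0 wild type. Of 9 tested cerebellar markers, 8 had a difference above 0 at P0 and 0 passed (median 0.16, against 0.07 over all genes). The sums of the other marker lists overlapped at P0. By mean log2 signal, 2 of these lists were separate at P0. Oligodendrocyte markers gave 10.63 to 10.86 in knockout, against 10.94 to 11.46 in wild type. Noradrenaline neuron markers gave 10.45 to 10.48 in knockout, against 10.22 to 10.41 in wild type.

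At P5, Pax8 and En2 did not overlap between genotypes and were higher in knockout, 2 of 23 genes where 12.9% of all genes did not overlap. Pax8 differed by 0.23 ± 0.16 and En2 by 0.24 ± 0.26. Some summed marker signals also separated the P5 genotypes, and their part was not tested. The hindbrain and cervical Hox sum was 19133 to 22943 in knockout, against 23275 to 24204 in wild type. Microglia gave 32033 to 34486 in knockout, against 26720 to 27446 in wild type. Astrocytes gave 196042 to 211957 in knockout, against 189010 to 194314 in wild type. The sums of the other marker lists overlapped at P5. By mean log2 signal, red blood cell markers were also separate, with 10.09 to 10.42 in knockout, against 9.31 to 9.65 in wild type. Gata2 (0.25 ± 0.17), Irx5 (-0.22 ± 0.18), Nkx6-1 and Lhx1 (0.17 ± 0.19) completed the 5 smallest p-values at P5 with Pax8. Irx5 gave 1232, 1442 and 1343 in P5 knockout samples, against 1458, 1978 and 1378 in P5 wild-type samples, and 1571, 1684 and 2033 in P0 knockout samples, against 1623, 1657 and 1914 in P0 wild-type samples. Its groups overlapped at both ages. The smallest adjusted p of the 23 genes at P5 was 0.9998. The 95% interval of the P5 genotype difference ran from -0.12 to 0.58 for Pax8, from -0.37 to 0.40 for Lbx1, from -0.27 to 0.41 for Prdm8 and from -1.14 to 1.07 for Lhx9. Among the 11 genes that changed with age in both genotypes, the test of whether the change differed gave adjusted p-values of 0.742 for Pax8, 0.746 for Pou4f1, 0.836 for Gbx2 and 0.87 for Prdm8.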

How the data were processed

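The authors deposited 1 intensity per probe set and sample on a linear scale, in the series table; no source used here names the software. Each array had the same mean, 2500.01, once the top and bottom 2% of its probe sets were set aside, so the arrays had been scaled already. The 64 control probe sets were dropped from 45101. The platform annotation, which can be old, gave 1 gene symbol for 34945 of the others, several for 932 and none for 9160.

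Signals were taken as log2(signal + 16) and quantile-normalized. Dim probe sets, with a mean under the 40th percentile, were dropped, and each gene was read from its brightest probe set. limma 3.58.1 in R 4.3.3 (lmFit and eBayes with an intensity trend) was fitted to 4 group means over all 12 samples, 3 a group. The Benjamini-Hochberg threshold was 0.05 over all 12600 genes, and genes below the filter were read from the same fit without it. The script was tested on simulated data.

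Groups and sample numbers were copied from the labels. Knockout was compared with wild type at each age and averaged, P5 with P0 in each genotype, and the age changes with each other (the interaction). The genes and lists were chosen with earlier results of these data known. All 34 genes are named; values by sample are given for those past the threshold in P5 minus P0, for the 5 smallest p-values of each genotype comparison, and where probe sets disagree, and of each further list the 6 smallest p-values. Promoter windows end at the RefSeq start. Alternatives changed the scaling, pseudocount, filter, probe set rule, variance prior, weights, block and samples.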

Additional observations from a re-analysis of the deposited data

How the results depend on the processing

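No setting that was tried turned the direction of an age difference that passed above. In knockout mice 10 genes changed with age as reported; the count was 5 of 11 tested with the filter at the 60th percentile, and between 6 and 11 when 1 sample was left out (6 without P5 knockout replicate 2). In wild type 12 changed as reported; the count was 6 of 11 tested with that stricter filter, 7 without P0 wild-type replicates 1 and 2 together, and between 8 and 12 when 1 sample was left out. Fewer genes enter the test under the stricter filter, and fewer samples in the others. Over all settings the range was 5 to 12 in knockout and 6 to 17 in wild type, the 17 with array weights. For knockout minus wild type at P0, 0 genes passed as reported, 1 (Irx3) with array weights, 1 (Lhx9) without P0 wild-type replicates 1 and 2 together, and between 0 and 1 when 1 sample was left out, the 1 being Irx3 without P0 wild-type replicate 2. Averaged over the ages, 1 gene passed with array weights (Irx3, 0.28, adjusted p = 0.0476). At P5 and in the test of the difference between genotypes the count was 0 in every setting. Lhx2 at P0 reversed to -0.30 without P0 wild-type replicates 1 and 2 together; the cause was not tested.

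With the replicate number as a block, 10 genes changed with age in knockout and 12 in wild type, and 0 passed between genotypes. The numbers share no stated source, and for that reason were not taken to pair samples. Deviations of same-numbered knockout and wild-type samples from their group means correlated at 0.41, 0.38 and 0.03 at P0. At P5 the correlations were -0.11, -0.13 and -0.13. Whether the numbers pair samples at P0 is therefore not known. The limits are 3 arrays a group, probe sets near background for the 9 dim genes, no probe-level values, and an unknown share of each region in a sample.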
